A study of Homo sapiens with 6 samples.

Results

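The resting transcriptome of Mon-Mac-6 cells under vehicle was taken from the 3 DMSO libraries of a series of 6. Mon-Mac-6 is an established human line from an acute monocytic leukaemia, and it carries a fusion of the KMT2A and MLLT3 genes. All 6 libraries came from this 1 line: 3 received DMSO and 3 received 500 nM WD6305, a degrader of the RNA methyltransferase METTL3, each for 48 h. The values below rest on the DMSO libraries alone, named DMSO 1, DMSO 2 and DMSO 3. No dose of DMSO could be taken from the labels. The labels give no genetic change made to the cells. Nothing in them says that the 3 libraries came from separate cultures, so the spread between them may be technical. The table held 31853 genes, and every gene with its 3 DMSO values was used.

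Monocytic leukaemia cells are blocked on the path from the granulocyte and monocyte progenitor to the monocyte. The promyelocyte stage packs serine proteases and ribonucleases into azurophil granules, and the monocyte stage adds lysozyme, the S100 calgranulins and receptors for bacteria and antibodies. Fusions of KMT2A join its DNA-binding end to a partner that recruits the elongation and DOT1L machinery, and keep the posterior HOXA genes and their partner MEIS1 on. PU.1, made by SPI1, and the C/EBP proteins are the factors that act at many myeloid promoters.

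The sequences before the starts of 5 myeloid genes are shown as examples from the granule, monocyte and receptor genes described here. Each line holds the 250 bases before the RefSeq start, from build GRCh38.p14. Capitals mark GAGGAA, the core of many PU.1 sites, TTGCNNAA, a C/EBP half-site pattern, and TATAAA, each searched on both strands. The windows are chr19:827587-827836, plus strand, for AZU1; chr19:840749-840998, plus strand, for PRTN3; chr14:24576251-24576500, minus strand, for CTSG; chr1:153357604-153357853, plus strand, for S100A9; and chr13:28100577-28100826, minus strand, for FLT3.
AZU1: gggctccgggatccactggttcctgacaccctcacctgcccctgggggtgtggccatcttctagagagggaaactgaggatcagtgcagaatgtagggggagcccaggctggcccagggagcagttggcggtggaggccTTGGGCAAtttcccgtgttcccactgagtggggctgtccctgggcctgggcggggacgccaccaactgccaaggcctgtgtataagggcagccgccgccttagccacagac
PRTN3: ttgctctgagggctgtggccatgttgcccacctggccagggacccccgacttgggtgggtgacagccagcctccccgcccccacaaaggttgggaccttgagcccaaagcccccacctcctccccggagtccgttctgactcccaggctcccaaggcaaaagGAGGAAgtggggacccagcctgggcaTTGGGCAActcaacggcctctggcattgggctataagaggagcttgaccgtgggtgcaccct
CTSG: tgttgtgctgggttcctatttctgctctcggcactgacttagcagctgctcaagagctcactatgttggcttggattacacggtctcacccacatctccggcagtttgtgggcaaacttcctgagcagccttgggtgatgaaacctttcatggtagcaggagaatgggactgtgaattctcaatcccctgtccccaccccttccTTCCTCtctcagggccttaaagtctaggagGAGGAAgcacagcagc
S100A9: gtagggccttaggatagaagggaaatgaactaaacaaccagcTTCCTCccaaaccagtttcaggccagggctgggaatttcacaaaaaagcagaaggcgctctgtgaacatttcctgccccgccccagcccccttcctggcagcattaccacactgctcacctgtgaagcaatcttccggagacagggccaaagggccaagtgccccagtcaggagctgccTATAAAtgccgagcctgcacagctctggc
FLT3: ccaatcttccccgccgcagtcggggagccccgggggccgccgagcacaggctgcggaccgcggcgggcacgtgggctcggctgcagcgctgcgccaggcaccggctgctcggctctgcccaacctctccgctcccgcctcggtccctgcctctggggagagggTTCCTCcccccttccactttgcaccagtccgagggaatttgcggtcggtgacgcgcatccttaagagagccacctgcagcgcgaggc
The AZU1 and PRTN3 windows, from neighbouring genes, each held 1 match to TTGCNNAA. GAGGAA was found 2 times before CTSG and 1 time each before PRTN3, S100A9 and FLT3. The S100A9 window alone among these 5 held TATAAA. CG dinucleotides numbered 26 before FLT3 but only 3 to 7 before the other 4 genes. Among all 27305 promoters of that length in the RefSeq table, 23.4% held GAGGAA, 9.13% held TTGCNNAA and 11.1% held TATAAA. A match is a stretch of letters and not a shown binding site.

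Transcript levels are given as FPKM, fragment numbers scaled to transcript length and library size. They can be set side by side between genes, with less certainty for very short genes, where few counts give a high value. A gene counted as expressed when it reached 1 FPKM in each of the 3 libraries. By that rule 10546 genes, 33.1% of the table, were expressed. A further 922 reached 1 FPKM in some libraries only, 8781 peaked between 0.1 and 1 FPKM, 7101 stayed below 0.1 FPKM and 4503 were listed at 0 FPKM in all 3. The median level of expressed genes was 6.70 FPKM, with 10% of them below 1.76 FPKM and 10% above 38.3 FPKM. Of 16087 protein-coding genes, 9442 or 58.7% were expressed, against 414 of 7622 long noncoding RNAs or 5.43% and 509 of 4705 pseudogenes. Protein-coding genes outside the mitochondrial genome took 93.2% ± 0.478 of the counts and 74.98% ± 1.49 of the summed FPKM (SD, n = 3).

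The libraries held 71155346, 66525685 and 67483820 counts in DMSO 1, 2 and 3. A count above 0 was listed for 23610 to 23933 genes per library. Low counts piled up at multiples of 4: between 1164 and 1176 genes per library had a count of 4, and only 572 to 636 had a count of 3. If 1 read pair stands for 4 counts, a count of 0 allows up to 3 pairs, or 0.169 to 0.180 CPM (counts scaled to library size), and 0.0422 to 0.0451 CPM if each count is a fragment. These limits cover counting error only. METTL3, the enzyme that the study's compound targets, stood at 11.3, 10.5 and 10.9 FPKM and ranked 3682nd of all genes. DMSO 3 differed from the other two libraries in a set of epithelial genes, described further on, and its mitochondrial share was the lowest of the 3.

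A small number of genes carried much of the signal. The 10 most abundant genes took 18.7% ± 0.995 of the summed FPKM, the first 100 took 41.1% ± 1.27, and the first 1000 took 68.4% ± 1.04 (SD, n = 3). Of the 30 most abundant genes, 14 were mitochondrially encoded. Of the first 100 genes with a symbol, which leaves out unnamed genes, 21 were mitochondrial and 24 coded for cytosolic ribosomal proteins. All 37 genes of the mitochondrial genome were expressed by the 1 FPKM rule. They include very short genes such as MT-TY (chrMT:5826-5891), rank 23 at 976, 1399 and 1033 FPKM, whose values are uncertain. The mitochondrial share of summed FPKM was 19.3%, 21.1% and 18.03% in DMSO 1, 2 and 3, but that of counts was only 4.56%, 5.02% and 4.10%. The short mitochondrial transcripts weigh more per length than per read. MT-CO1, a subunit of cytochrome c oxidase, led the table at 6083, 7979 and 6557 FPKM. Several mitochondrial genes overlap on the same strand, among them MT-ATP6 with MT-ATP8 and MT-ND4 with MT-ND4L, so the split between such partners is uncertain.

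Outside the mitochondrial genome, granule and monocyte genes held 4 of the first 5 ranks. SRGN, the proteoglycan core on which granule proteases are stored, ranked first among nuclear genes at 6220, 5734 and 5975 FPKM. FTL, the ferritin light chain, came next at 4189, 3952 and 3598 FPKM. S100A9, a calcium-binding protein of monocytes and neutrophils, followed at 3771, 3503 and 3464 FPKM. All 3 were highest in DMSO 1, and FTL had the widest range of them at 1.16-fold. CTSG, which encodes cathepsin G, measured 3395, 3042 and 3147 FPKM. LYZ, the lysozyme gene, measured 3139, 2891 and 3091 FPKM. ELANE, neutrophil elastase, held the next rank with 1603, 1606 and 1508 FPKM. These 3 exceeded ACTB, a cytoskeletal housekeeping gene at 1372, 1431 and 1334 FPKM, in each library.

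**Figure D1:**
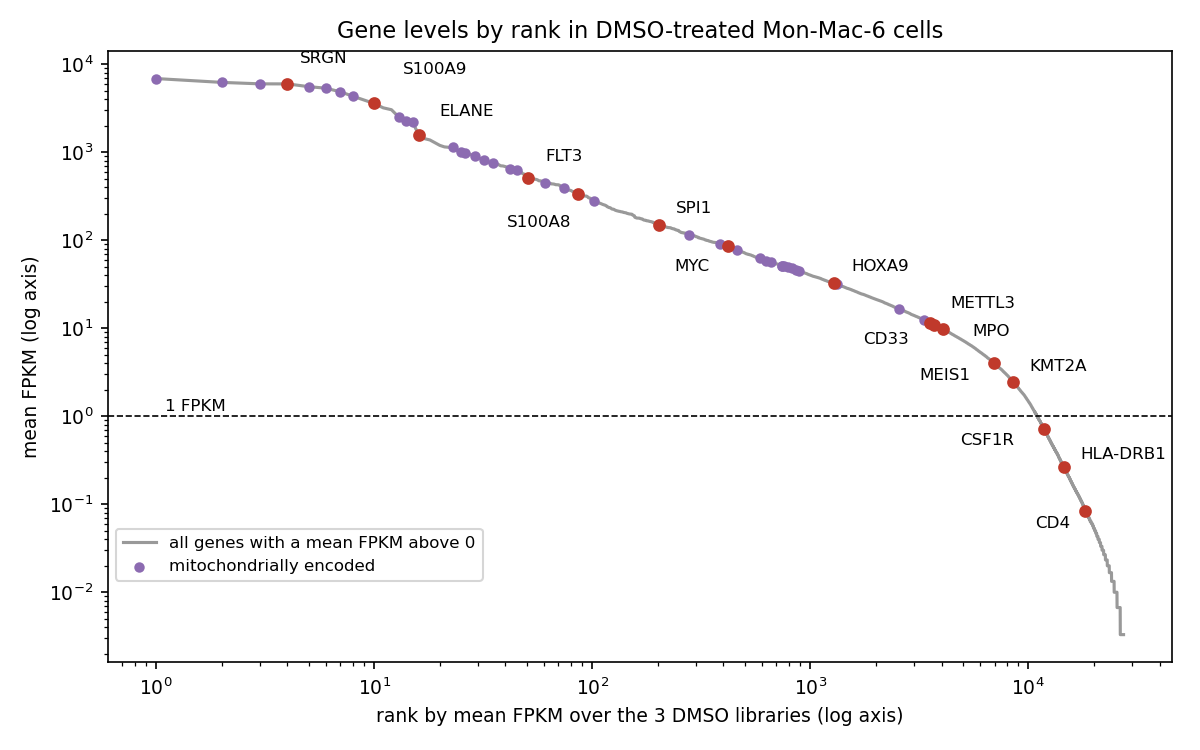
Mean FPKM of each gene over the 3 DMSO libraries (y axis, log scale) against its rank (x axis, log scale), with mitochondrial genes as purple points, selected genes as red points and the dashed line at 1 FPKM. SRGN at rank 4 and S100A9 at rank 10 sit among mitochondrial genes, FLT3 at rank 51 lies above SPI1 and MYC, and CSF1R, HLA-DRB1 and CD4 lie under the line.

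Beyond the housekeeping sets, the next genes by level were again of myeloid type or of general growth. PTMA, a chromatin-associated acidic protein of dividing cells, averaged 736 FPKM, and GPX1, a peroxide-removing selenoenzyme, averaged 729 FPKM. ALOX5AP, which presents arachidonic acid to 5-lipoxygenase for leukotriene synthesis, stood at 462, 432 and 416 FPKM. LAPTM5, a lysosomal membrane protein of blood cells, stood at 332, 333 and 316 FPKM. An unlooked-for entry was PPP1R27, a regulatory subunit gene of protein phosphatase 1. It ranked 38th with 729, 682 and 693 FPKM, at chr17:81833492-81835050 on the minus strand (GRCh38), 8108 bases from P4HB on the same strand. P4HB, protein disulfide isomerase, averaged 428 FPKM, so the small neighbour was listed higher than it in FPKM. In counts P4HB was the higher, with 364787, 344911 and 325109 against 79794, 69714 and 71417 for PPP1R27. Pseudogenes also reached high ranks: MTATP6P1 and MTND2P28, nuclear copies of mitochondrial genes, averaged 698 and 628 FPKM, and RPL21P16 and EEF1A1P5 averaged 538 and 493 FPKM. Each has a near-identical expressed parent, so its value is uncertain.

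FLT3, the receptor tyrosine kinase of early myeloid and dendritic precursors, was the most abundant cytokine receptor. It measured 498, 497 and 545 FPKM (mean 514 ± 27.5, SD, n = 3), rank 51 of all genes and 33 of nuclear genes. It spans chr13:28003274-28100592 on the minus strand. The next receptor in that list of 37 in the table, TNFRSF1B for tumour necrosis factor, averaged 57.9 FPKM, and the values of the 2 receptors did not overlap. IL6R averaged 36.3 FPKM and CSF3R, the receptor for granulocyte colony-stimulating factor, 11.3 FPKM. The receptor chains for GM-CSF and interleukin 3 were low: CSF2RB averaged 3.56 FPKM, CSF2RA 2.65 FPKM and IL3RA 2.73 FPKM. CSF1R, the macrophage colony-stimulating factor receptor, stayed below 1 FPKM in all libraries at 0.78, 0.70 and 0.68. In all 24 of the 37 receptors were expressed, near the 58.7% of all protein-coding genes. IL1R2, a decoy receptor for interleukin 1, was listed at 0 in every library.

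The azurophil granule list had the highest median of the blood cell lists. Of its 19 genes, all in the table, 16 were expressed, their list median was 98.4 FPKM, and they summed to 4.83% ± 0.148 of all FPKM (SD, n = 3). The median expressed gene of the table stood at 6.70 FPKM. Beside SRGN, CTSG and ELANE, the list was led by CALR, the calreticulin chaperone that is not confined to granules, at 1215, 1232 and 1141 FPKM. RNASE2, an eosinophil-type ribonuclease, measured 462, 425 and 449 FPKM, and its relative RNASE3 measured 104, 92.3 and 99.2 FPKM. The growth factor gene CLEC11A gave 242, 235 and 263 FPKM. MS4A3, a membrane protein of granulocyte and monocyte progenitors, gave 117, 114 and 113 FPKM, and NKG7, a granule membrane protein also made by NK cells, gave 184, 168 and 156 FPKM. Of these genes NKG7 had the widest range between libraries, 1.18-fold.

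The serine protease family genes AZU1, PRTN3, ELANE and CFD lie side by side on chromosome 19 but differed widely in level. CTSG lies apart from them on chromosome 14. AZU1 (chr19:825097-832018), azurocidin, gave 412, 394 and 391 FPKM. PRTN3 (chr19:840999-848175), proteinase 3, gave 92.4, 105 and 85.9 FPKM. ELANE (chr19:851014-856247) was far above both, as given earlier, and CFD (chr19:859453-863641), complement factor D, gave 51.9, 56.3 and 53.8 FPKM. The order ELANE, AZU1, PRTN3, CFD held in each library, with no overlap between the values of neighbours in that order. MPO, myeloperoxidase, the defining enzyme of these granules, was low by comparison at 9.54, 10.1 and 9.40 FPKM and ranked 4083rd. PRSS57, another granule protease, averaged 27.6 FPKM. BPI, DEFA4 and IGLL1 were below threshold, with DEFA4 at 0, 0.20 and 0.26 FPKM. Granules of later neutrophil stages were hardly represented: of 11 genes of that list in the table only CHI3L1, at 11.6, 11.1 and 9.92 FPKM, and CXCR2, at 5.04, 5.31 and 5.10 FPKM, were expressed, and CAMP, MMP8, ALPL and PGLYRP1 were listed at 0.

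Of 33 monocyte and macrophage genes, 27 were in the table and 20 were expressed, with a list median of 8.38 FPKM. After S100A9 and LYZ came S100A8, the partner of S100A9 in calprotectin, at 367, 333 and 306 FPKM. S100A9 (chr1:153357854-153361023) and S100A8 (chr1:153390032-153391073) did not overlap in level, although their proteins pair. S100A12, between them on the chromosome, gave 63.2, 53.5 and 54.7 FPKM. MNDA, a nuclear antigen of myeloid cells, gave 91.9, 88.5 and 106 FPKM. The scavenger receptor gene CD68 averaged 42.8 FPKM and the chemokine receptor gene CCR2, which marks classical monocytes, 20.5 FPKM. CD33 gave 11.5, 12.04 and 10.8 FPKM. CD14, the lipopolysaccharide co-receptor, gave 10.2, 9.99 and 10.3 FPKM. Some markers of the differentiated macrophage were below threshold: CD163 at 0.35, 0.26 and 0.33 FPKM, MARCO at 0.60, 0.42 and 0.38 FPKM, and MRC1 at 0, 0 and 0.01 FPKM. Other members of the monocyte and macrophage list were higher, with CST3 averaging 38.7 FPKM, FCGR1A 8.38 FPKM and MS4A7 4.76 FPKM. CD4, which human monocytes usually carry, stood at 0.05, 0.12 and 0.08 FPKM. FCN1, FCGR3A, CD300E, SERPINA1, C1QA and C1QB were not listed in the table, so they have no value here.

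**Figure D2:**
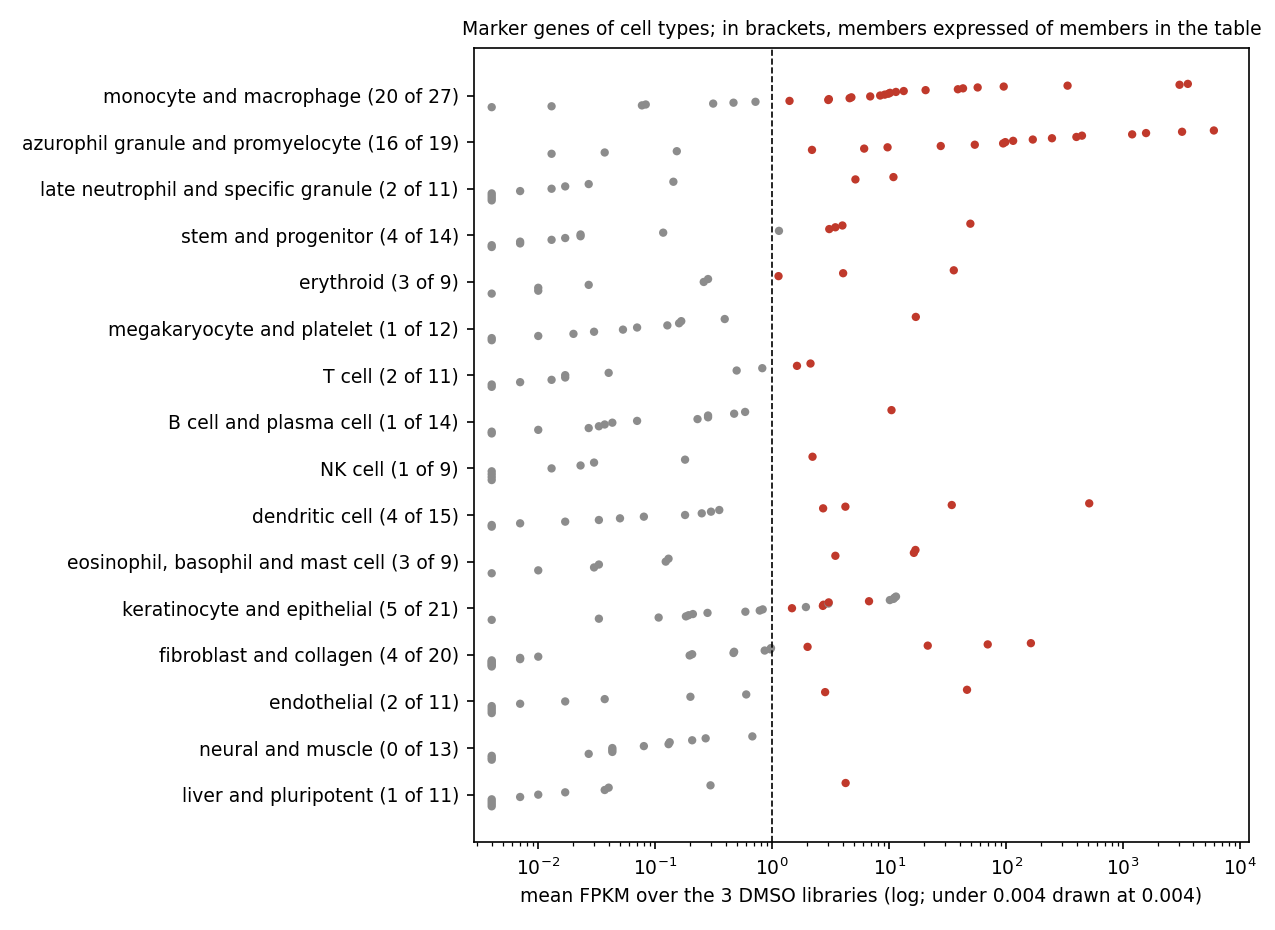
Mean FPKM over the 3 DMSO libraries (x axis, log scale, values under 0.004 drawn at 0.004) of the marker genes of 16 cell type lists; red points are genes at 1 FPKM or more in each library, grey points all others. The monocyte and azurophil granule rows reach above 1000 FPKM. Of the members in the table, 20 of 27 and 16 of 19 were expressed in these rows, and 0 of 13 in the neural and muscle row.

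The lists for other lineages were mostly below threshold, with some exceptions. Counts are out of the list members in the table: 14 of 20 stem and progenitor, 9 of 20 erythroid and 12 of 15 megakaryocyte genes. Among stem and progenitor genes 4 of 14 were expressed, led by CD164 at 47.9, 48.2 and 52.5 FPKM, a sialomucin found in many cell types. MEIS1, GATA2 and SPINK2 of the same list averaged 3.99, 3.47 and 3.08 FPKM. CD34, the usual progenitor antigen, and its neighbours in this list PROM1, HLF and MECOM were listed at 0 or at 0.02 FPKM or less in each library. In the erythroid list 3 of 9 were expressed, namely the transferrin receptor TFRC, EPOR and KLF1, and GATA1 and TAL1 were at 0.03 FPKM or less. NFE2 alone of 12 megakaryocyte genes was expressed, at 17.1, 17.8 and 15.9 FPKM. In a bulk RNA sample, few cells with a transcript and little of it in each cell cannot be told apart.

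Lymphoid lists held 4 expressed genes in all. The table held 11 of 20 T cell, 14 of 20 B cell, 9 of 18 NK cell and 15 of 20 dendritic genes, and counts are out of these. Among the 11 T cell genes, TRAC, the constant region of the T cell receptor alpha chain, gave 1.84, 2.35 and 2.19 FPKM. IL7R gave 1.74, 1.60 and 1.55 FPKM. IGHM, the constant region of the immunoglobulin mu chain, was the only expressed member of 14 B cell genes, at 10.5, 10.9 and 10.03 FPKM. CD79A and CD79B did not exceed 0.71 FPKM, and RAG2 was listed at 0. GZMH was the only expressed member of 9 NK cell genes, at 2.91, 1.51 and 2.22 FPKM. CD3D, CD3E, CD3G and MS4A1 were not listed in the table. The dendritic list was expressed in 4 of 15 genes: FLT3, IRF8 at 35.1, 32.9 and 34.9 FPKM, TCF4 and IL3RA. TPSB2 and TPSAB1, the mast cell tryptases, stood at 17.7, 17.9 and 14.8 FPKM and at 16.4, 16.6 and 15.9 FPKM, whereas MS4A2, HDC and CMA1 of the same list were at 0.18 FPKM or less. These 2 tryptase genes are near-identical neighbours, so the split between them is uncertain.

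Genes of solid tissues gave the background. The table held 13 of 18 neural and muscle genes and 11 of 18 liver and pluripotency genes. Of 13 neural and muscle genes none reached threshold in every library, and TUBB3, the highest, gave 0.70, 0.74 and 0.59 FPKM. Of 11 liver and pluripotency genes only HP was expressed, with 4.58, 4.29 and 3.87 FPKM. The fibroblast list was expressed in 4 of 20 genes, of which VIM at 162, 165 and 162 FPKM, S100A4 and TIMP1 are also made by myeloid cells, and the collagens COL1A2, COL3A1 and COL5A1 were at 0.01 FPKM or less. PECAM1, which leukocytes share with endothelium, averaged 46.3 FPKM, and the endothelial genes TEK, VWF and ROBO4 were listed at 0.

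The HOX genes were expressed from 1 cluster only. Among the 11 HOXA protein genes with values, 10 were expressed, while none of 9 HOXB, 9 HOXC or 7 HOXD genes exceeded 0.13 FPKM in any library. HOXA9, the homeobox gene most closely tied to KMT2A fusions, was the highest at 32.4, 33.9 and 30.7 FPKM. Levels were lower on both sides of it along the cluster, without a steady fall on the anterior side. HOXA10 gave 21.7, 24.6 and 21.5 FPKM, HOXA11 gave 12.7, 12.9 and 12.3 FPKM, and HOXA13, at the posterior end, gave 3.21, 3.50 and 3.93 FPKM. Towards the anterior end, HOXA7 gave 11.9, 11.4 and 10.3 FPKM, HOXA6 averaged 5.49 FPKM and HOXA5 averaged 6.68 FPKM. HOXA4 and HOXA3 lay between 1.08 and 1.85 FPKM in all libraries. HOXA2 was the only HOXA protein gene under threshold, at 0.13, 0.18 and 0.27 FPKM. The HOXA11 and HOXA7 values were neighbours in level without overlap, with a gap smaller than the HOXA7 range. HOXA11 is overlapped on the other strand by HOXA11-AS, which averaged 6.85 FPKM. HOTTIP and HOTAIRM1, noncoding RNAs at the ends of the cluster, averaged 0.15 and 1.05 FPKM.

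The partners of the HOX proteins and the fusion machinery were present at moderate levels. PBX3, a cofactor of HOXA9, gave 38.0, 37.6 and 38.8 FPKM and MEIS1 only 4.09, 4.0 and 3.87 FPKM. EYA1 was at 0.01 FPKM or less. KMT2A itself was low at 2.17, 2.51 and 2.76 FPKM and MLLT3 lower at 1.29, 0.92 and 1.22 FPKM, so that MLLT3 passed 1 FPKM in 2 of 3 libraries. A value per gene sums the normal and the fused transcript, and the 2 cannot be told apart. Of 24 genes of the KMT2A complex and its partners, 23 were expressed. MLLT1, a YEATS domain reader of the elongation complex, averaged 31.1 FPKM, WDR5 30.0 FPKM, DOT1L, the histone H3K79 methyltransferase, 18.4 FPKM, and MEN1, the scaffold menin, 16.5 FPKM. MYC, a transcription factor of growth, gave 83.9, 87.9 and 83.4 FPKM and MYB, a progenitor regulator, gave 73.3, 76.0 and 85.1 FPKM.

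Genes that are often mutated in acute myeloid leukaemia were nearly all transcribed, 33 of 34 in the table, whereas genes of adverse-risk and stemness scores were not, 11 of 24. These compare with 58.7% of all protein-coding genes. SRSF2, a splicing factor, averaged 169 FPKM, NPM1, a nucleolar chaperone, 115 FPKM, and IDH2 and IDH1, the isocitrate dehydrogenases, 88.8 and 50.2 FPKM. WT1, the exception, gave 0.59, 0.73 and 0.74 FPKM. Levels per gene say nothing about whether a gene is mutated. PRAME, a tumour antigen, gave 26.5, 25.1 and 25.5 FPKM, and MECOM, BAALC, ERG and MN1 stayed at 0.04 FPKM or less. Of 40 surface antigens with values, 22 or 55.0% were expressed, near the 58.7% of all protein-coding genes. CD93 averaged 57.3 FPKM, CD82 33.3 FPKM, CD44 20.1 FPKM and CD47 13.9 FPKM. CSPG4, the NG2 antigen of leukaemias with KMT2A fusions, gave 3.09, 3.01 and 2.68 FPKM. CLEC12A, CD36, HAVCR2 and CD274 did not reach 1 FPKM in any library.

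The myeloid transcription factors gave a graded order. SPI1 and CEBPA, the master factors of this lineage, were highest with 139, 161 and 146 FPKM and with 147, 138 and 141 FPKM. Their ranges overlapped. Of 63 factors with values, 50 were expressed. GFI1, a repressor of the granulocyte branch, averaged 40.7 FPKM and IRF8, of the monocyte branch, 34.3 FPKM. IKZF1 averaged 23.4 FPKM, RUNX1 14.8 FPKM and CEBPD 27.6 FPKM, but CEBPB averaged 4.02 FPKM and CEBPE 2.27 FPKM. EGR1, linked to the late monocyte, averaged 1.71 FPKM, and KLF4 averaged 3.86 FPKM. GATA1, GATA3, IKZF2, IRF4 and TAL1 were at 0.03 FPKM or less in each library. In this list 27 of the 50 expressed members were highest in DMSO 2, as were 31.3% of all expressed genes.

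Receptors for microbes, antibodies and adhesion were expressed in part. ITGB2, the common chain of leukocyte integrins, gave 260, 260 and 267 FPKM and ITGAL, its partner in LFA-1, gave 99.2, 104 and 99.7 FPKM. ITGAM and ITGAX, the partners in CR3 and CR4, were much lower at 1.35, 1.34 and 1.53 FPKM and at 1.69, 1.92 and 1.55 FPKM. FCER1G, the signalling chain of Fc receptors, averaged 96.4 FPKM, FCGR1A 8.38 FPKM and FCGR2A 4.59 FPKM. TLR2 gave 20.3, 20.7 and 23.3 FPKM and TLR4 gave 3.11, 2.82 and 3.33 FPKM. TLR3, TLR5, TLR7, TLR8, TLR9 and TLR10 were below 1 FPKM in every library. Of the adaptors, STING1 averaged 56.3 FPKM, PYCARD 42.3 FPKM and MYD88 25.5 FPKM. NLRP3, the inflammasome sensor, averaged 22.2 FPKM. CXCR4 led the chemoattractant receptors with 75.2, 73.2 and 68.8 FPKM, and FPR1 and C5AR1, typical of mature phagocytes, stayed at 0.16 FPKM or less.

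Class I and class II antigen presentation stood far apart. B2M, the light chain of class I, gave 524, 477 and 485 FPKM, and HLA-C and HLA-B both averaged 317 FPKM. Among class II genes, HLA-DRA gave 2.42, 1.76 and 1.78 FPKM, HLA-DRB1 gave 0.29, 0.27 and 0.23 FPKM, HLA-DQA1 and HLA-DQB1 were listed at 0, and CIITA, their activator, gave 0.35, 0.37 and 0.28 FPKM. CD74, the invariant chain, was higher at 25.0, 23.9 and 24.6 FPKM. The NADPH oxidase of phagocytes was expressed in each part named here: NCF4 averaged 58.8 FPKM, CYBB 51.6 FPKM, NCF1 46.2 FPKM and CYBA 37.7 FPKM.

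Genes of growth and survival were mostly expressed. Of 27 cell cycle genes 24 were expressed. CCND3 averaged 68.0 FPKM, whereas CCND1 and CCND2, the other D-type cyclins, gave 0.63, 1.02 and 0.84 FPKM and 0.14, 0.07 and 0.01 FPKM. CDK4 gave 73.4, 68.7 and 68.2 FPKM and CDK6 15.2, 16.6 and 22.2 FPKM. CCNA1, a cyclin otherwise typical of the testis and of myeloid leukaemia, gave 38.0, 36.9 and 37.9 FPKM. Among inhibitors, CDKN2A gave 86.5, 79.7 and 80.6 FPKM and CDKN2C gave 79.9, 81.1 and 84.7 FPKM, while CDKN1A averaged 4.76 FPKM. RB1, which lies downstream of the CDKN2A product p16, was near threshold at 0.51, 1.02 and 0.86 FPKM. MCL1 led the protective BCL2 relatives with 43.2, 43.5 and 43.4 FPKM, above BCL2 at 5.41, 6.11 and 6.40 FPKM and BCL2L1 at 5.45, 6.08 and 5.57 FPKM, and BCL2A1 averaged 2.81 FPKM. The BCL2 and BCL2L1 ranges overlapped.

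The genes that bear on the compound's mechanism were present at baseline. Of 24 writers, erasers and readers of N6-methyladenosine, 21 were expressed. METTL14, the partner of METTL3, gave 3.59, 3.32 and 4.13 FPKM, below METTL3 in every library. WTAP averaged 16.3 FPKM, ALKBH5, an eraser, 16.5 FPKM, and FTO, the other eraser, gave 0.91, 1.23 and 1.19 FPKM. Among readers, YTHDF2 averaged 32.5 FPKM, and IGF2BP2 was the only member of its family above threshold with 18, 19.7 and 19.8 FPKM. METTL3 is overlapped on the other strand by TOX4, which averaged 8.72 FPKM. Of 20 ubiquitin ligase parts used by degraders, 19 were expressed, with VHL at 22.6, 21.9 and 20.2 FPKM and CRBN at 2.20, 1.81 and 2.18 FPKM.

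Host transcripts of 4 microRNA genes known in blood cells were measured. MIR223HG gave 16.01, 17.0 and 16.1 FPKM, MIR142HG 10.7, 7.10 and 7.88 FPKM, MIR155HG 7.09, 7.38 and 6.81 FPKM, and MIR17HG 5.29, 4.46 and 5.88 FPKM. Libraries of polyadenylated RNA do not measure the mature microRNAs, so the sequences are shown for what these hosts encode. They come from RefSeq, with bases 2 to 8, the seed, in capitals.
hsa-miR-223-3p: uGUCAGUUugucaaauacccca
hsa-miR-142-3p: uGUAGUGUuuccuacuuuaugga
hsa-miR-155-5p: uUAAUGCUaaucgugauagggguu
hsa-miR-17-5p: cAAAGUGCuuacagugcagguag
hsa-miR-20a-5p: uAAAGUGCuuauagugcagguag
hsa-miR-18a-5p: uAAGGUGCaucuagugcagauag
hsa-miR-19a-3p: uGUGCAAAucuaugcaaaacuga
hsa-miR-19b-3p: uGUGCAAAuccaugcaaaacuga
hsa-miR-92a-3p: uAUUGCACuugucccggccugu
In the MIR17HG cluster, miR-17-5p and miR-20a-5p share the seed AAAGUGC and miR-19a-3p and miR-19b-3p share GUGCAAA. The seeds of miR-18a-5p and miR-92a-3p, AAGGUGC and AUUGCAC, differ from both. All these microRNAs lie inside the span of their host in the table, for example miR-223-3p at chrX:66018937-66018958 in MIR223HG at chrX:66015414-66020426.

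Promoter content moved with level across genes, as a description. Of 16087 protein-coding genes, 12636 matched a RefSeq promoter. The median number of CG dinucleotides in 250 bases was 11 for genes under 0.1 FPKM, 16 for 0.1 to 1 FPKM, 21 for 1 to 10 FPKM and 22 for 10 to 100 FPKM. At 100 FPKM and above it was 21. CCGGAAG is an ETS-type motif common before housekeeping genes. It was in 4.55% of the promoters of genes under 0.1 FPKM and in 20.3% for 10 to 100 FPKM. The share was 19.9% at 100 FPKM and above, and 13.9% over all matched protein-coding genes. Among all 27305 promoters it was 8.81%. The myeloid lists went against the first trend: their median was 5 CG dinucleotides over 13 azurophil promoters and 2 over 22 monocyte promoters, although both lists hold abundant genes. Low medians were not particular to them: the T cell list had 6 over 7 promoters and the keratinocyte and epithelial list 3 over 11. The HOXA list had 23 over 10. GAGGAA was in 13 of those 22 monocyte promoters, 59.1%, in 3 of the 13 azurophil promoters, 23.1%, and in 3 of 7 T cell promoters, 42.9%, against 23.4% of all promoters. TTGCNNAA was in 5 of the 13 azurophil promoters, 38.5%, and in 5 of the 22 monocyte promoters, 22.7%, against 9.13% of all. In the keratinocyte and epithelial list GAGGAA and TTGCNNAA were each in 2 of 11 promoters, 18.2%. In the ribosomal list GAGGAA was in 21 of 64, 32.8%, and TTGCNNAA in 7 of 64, 10.9%. GAGGAA was in 3 of 10 HOXA promoters, and TTGCNNAA in 0 of 10 HOXA and 0 of 7 T cell promoters. TAACNG, a MYB-type pattern, was in 2 of the 13 azurophil and 4 of the 22 monocyte promoters, against 17.6% of all promoters. Over the matched protein-coding genes the shares were 23.5% for GAGGAA, 6.62% for TTGCNNAA and 14.9% for TAACNG. The ribosomal protein genes, with 64 promoters matched, had a median of 20 CG dinucleotides.

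The 3 libraries were close to each other. Over the 10546 expressed genes the correlation of log2(FPKM + 1) across genes, which are not independent replicates, was 0.995 between DMSO 1 and 2, 0.992 between DMSO 1 and 3 and 0.993 between DMSO 2 and 3. The median difference between libraries on the log2 scale was 0.08, 0.10 and 0.10 for those pairs. The median coefficient of variation was 6.65%, and 71.1% of expressed genes stayed under 10%. It fell from 38.6% at 0.1 to 0.5 FPKM to 4.51% at 50 to 100 FPKM, and was 7.60% for the 25 genes at 1000 FPKM and above. Mitochondrial genes made up part of that top class. The biological coefficient of variation estimated by edgeR was 15.5% over 16350 genes, and 9.56% with counts divided by 4. Chi-square per degree of freedom on counts divided by 4 was 6.33, 10.5 and 9.27 for those pairs. This is above counting noise if 4 counts stand for 1 read pair. Counts that move between overlapping or near-identical genes also enter these values. The values therefore cannot show whether any pair of libraries shares a source. RBBP4, a histone-binding protein, gave 32.7, 32.8 and 32.6 FPKM, and with NONO and GLO1 it was among the 10 steadiest genes at 5 FPKM or more.

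**Figure D3:**
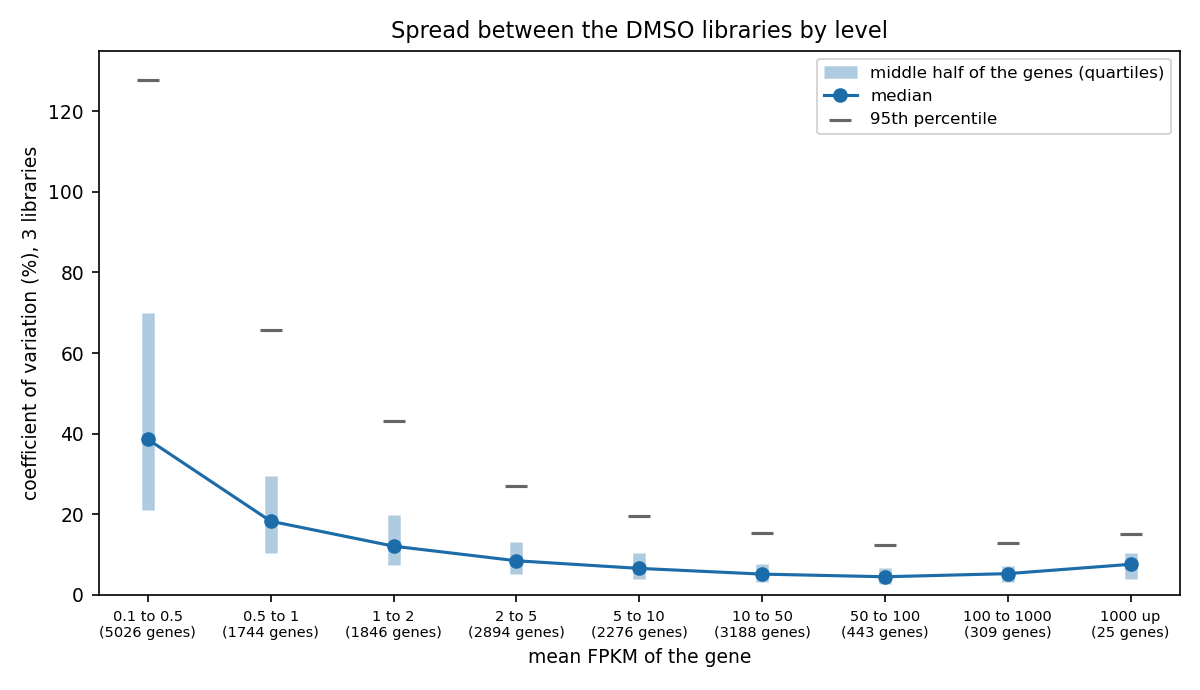
Coefficient of variation over the 3 DMSO libraries (y axis, percent) by mean FPKM of the gene (x axis classes, number of genes in brackets); points are medians, bars the quartiles and dashes the 95th percentile. The median fell from 38.6% in the lowest class to 4.51% at 50 to 100 FPKM and stood at 7.60% in the highest.

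Small shifts ran through whole gene groups. For these counts each library was centred on the median of all expressed genes, of which 32.5%, 31.3% and 36.2% were highest and 34.3%, 28.9% and 36.9% lowest in DMSO 1, 2 and 3. Of the 80 cytosolic ribosomal protein genes, 77 were highest in DMSO 1, with a median deviation of 0.12 on the log2 scale from the gene's mean, and 52 were lowest in DMSO 3. Of 15 mitochondrial genes 14 were lowest in DMSO 3, with a median deviation of -0.17 there. Transcript length and GC content moved with the same libraries. In DMSO 3 the median deviation went from -0.04 in the fifth of genes with the shortest transcripts to 0.06 in the fifth with the longest, and from 0.12 in the fifth with the lowest GC content to -0.05 in the fifth with the highest. DMSO 1 went the other way, from 0.07 for the shortest transcripts to -0.06 for the longest. By GC content it went from -0.05 for the lowest to 0.02 for the highest. The part of transcript length and GC content in the group shifts, those of DMSO 1 included, was not tested. The 24 expressed cell cycle drivers did not lean to DMSO 3, where 7 were highest and 10 lowest.

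Keratinocyte transcripts set DMSO 3 apart from the other libraries. KRT5, the keratin of the basal epidermal layer, gave 18.03, 15.3 and 0.03 FPKM, and its partner KRT14 gave 17.1, 13.3 and 0.06 FPKM. KRT6A gave 17.2, 15.4 and 0.02 FPKM and KRT17 gave 16.3, 18.02 and 0.03 FPKM. DMSO 1 and 2 held these keratins at the level of CD33 or above, and DMSO 3 held almost none. Together KRT5, KRT6A, KRT6B, KRT14, KRT16 and KRT17 had 17458, 14781 and 38 counts. SPRR1B, a cornified envelope protein, gave 9.12, 7.17 and 0.09 FPKM, and SFN gave 8.95, 9.27 and 1.97 FPKM. S100A14, S100A16, PERP and SLPI were also at least 2-fold lower in DMSO 3 than in either other library. None of these genes overlaps another on its strand. KRT8, KRT18 and KRT10, which are not confined to stratified epithelium, did not follow: their summed counts were 1662, 2056 and 1806. The keratinocyte and epithelial list summed to 0.034%, 0.0332% and 0.0049% of all FPKM in DMSO 1, 2 and 3. KRT2, a keratin of the upper epidermis, was listed at 0 and FLG, filaggrin, did not exceed 0.06 FPKM. The cause of the difference between libraries was not tested. For the 6 keratin genes summed first, a DMSO mean describes none of the 3 libraries.

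Some of the other genes that differed between libraries overlap a gene that differed the opposite way. IFI30, a lysosomal thiol reductase, gave 25.9, 1.02 and 25.7 FPKM, and its neighbour PIK3R2, a regulatory subunit of phosphoinositide 3-kinase, gave 11.6, 0.07 and 12.1 FPKM. The readthrough gene ENSG00000268173, which spans both at chr19:18153158-18178117, went the other way at 0.42, 24.6 and 0.67 FPKM. The summed counts of the 3 genes were steady, at 130, 137 and 133 CPM. Other readthrough genes also varied, RPL36A-HNRNPH2 at 35.6, 0 and 44.9 FPKM and RPS10-NUDT3 at 7.31, 26.8 and 10.9 FPKM, but their partners hold most counts of these loci, so the sums say little. At PDXP, 1.60, 16.1 and 13.7 FPKM, and its overlapping gene ENSG00000285304, 17.1, 0.32 and 0.29 FPKM, the 2-gene sums differed by 1.84-fold. ENSG00000285304 also overlaps SH3BP1 on the same strand. With SH3BP1 added, the sums were 86.7, 85.2 and 76.4 CPM, a 1.13-fold range. Near-identical copies varied too. RPL14P1 gave 192, 174 and 23.4 FPKM, and its parent RPL14 gave 69.7, 68.8 and 79.7 FPKM. XAGE1A gave 74.1, 53.9 and 30.4 FPKM and XAGE1B 54.2, 60.0 and 74.1 FPKM, with a summed level within 1.13-fold.

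**Figure D4:**
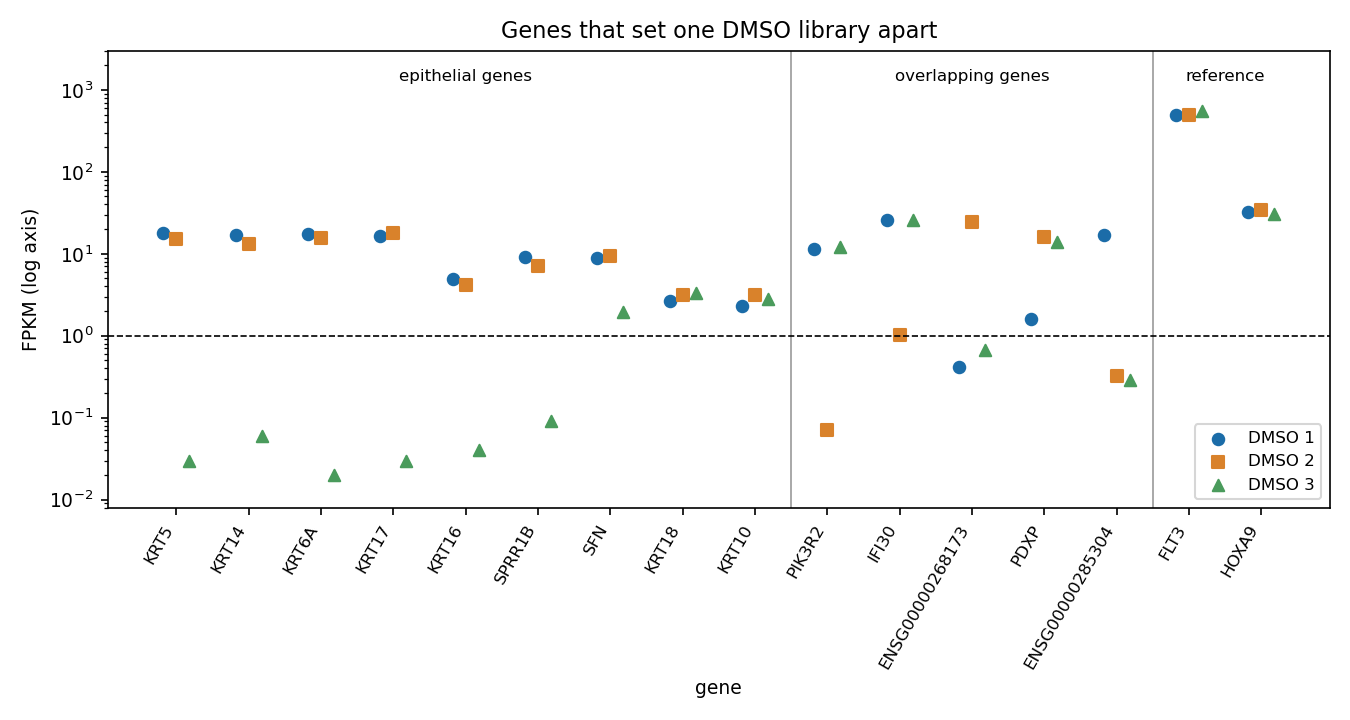
FPKM (y axis, log scale) of 16 genes in DMSO 1, 2 and 3, with the dashed line at 1 FPKM. KRT5, KRT14, KRT6A, KRT17, KRT16 and SPRR1B fall below 0.1 FPKM in DMSO 3 only, IFI30 and PIK3R2 fall in DMSO 2 where ENSG00000268173 rises to 24.6 FPKM, and FLT3 and HOXA9 are level across the libraries.

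In total 247 of the 10981 genes with a mean of at least 1 FPKM differed at least 2-fold between the highest and lowest library, and 39 of the 6241 genes at 5 FPKM or more. With any 1 of the libraries left out the first count was smaller: 136 without DMSO 1, 152 without DMSO 2 and 113 without DMSO 3. DMSO 3 was the library that stood apart in 105 of them, lower in 67 and higher in 38. Of the 247 genes, 132 overlap another gene on the same strand, 115 do not, and 54 are pseudogenes. Among the 10546 genes expressed in all 3 libraries, 509 were pseudogenes. How many of the 10981 genes overlap another on the same strand was not counted, so no excess is shown. CENPF, a centromere protein gene without such an overlap, gave 8.45, 9.95 and 17.3 FPKM. Where the overlapping genes together were no higher than the gene itself, which was so for 27 genes, the summed counts differed by less than 2-fold in 17. ENSG00000258017 and ENSG00000272540, noncoding genes on the strand opposite to the tubulin genes TUBA1B and TUBB, gave 9.58, 7.99 and 0.04 FPKM and 15.3, 70.1 and 16.1 FPKM, while TUBA1B and TUBB stayed within 1.07-fold. No source used here states if strand was used in counting, so reads of such partners cannot be told apart.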

How the data were processed

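RNA of the 3 DMSO samples of Mon-Mac-6 was selected for poly(A) and made into paired-end libraries with a dUTP step that marks strand, per the labels' protocols. The authors deposited 1 table with a FPKM value and an estimated count per gene and library, per the file headers. The submitters' processing notes name fastp, HISAT2, StringTie, edgeR and the build GRCh38, with no versions or settings, and no source used here states how counts were assigned to genes. FPKM were deposited by the authors with 2 decimals, and the deposited estimated counts are whole numbers. Library totals of counts were between 66525685 and 71155346.

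From these, levels, ranks, shares and the spread between libraries were computed in Python 3.11.15 with pandas 2.3.3, and the dispersion of counts with edgeR 4.0.16 (filterByExpr, TMM factors, intercept only) in R 4.3.3, with DESeq2 1.42.0 as an alternative. Expressed genes are those that reached 1 FPKM in all 3 libraries. Only 1 group is described, so no test between groups was made. The 3 libraries with WD6305 were not used. The genes and lists were chosen with earlier results of these data known. Named genes were METTL3, the 30 most abundant genes with and without housekeeping lists, the 8 highest and 5 lowest members of each list, all members of cell type and HOX lists, the 15 least steady and the 10 steadiest genes at 5 FPKM or more. Other named list members, neighbours and genes of the same loci were chosen after their values were seen. Promoter and microRNA sequences came from RefSeq tables of build GRCh38.p14, where 12636 of 16087 protein-coding genes matched. Entries for ELANE, LYZ and SRGN were named only. Gene spans are those of the deposited table. Some genes are not reported here.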

Additional observations from a re-analysis of the deposited data

How the results depend on the processing

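The number of expressed genes, 10546, and the 699 list members expressed stayed within 1.5 times under each alternative run, with 8772 to 13301 genes and 511 to 781 members. The counts of single lists moved by more in 23 of 49 lists at 5 FPKM, 6 at a CPM of at least 1, 2 at 0.5 FPKM and, without DMSO 3, 1: expressed members of keratinocyte and epithelial genes went from 5 to 12. The share of the 100 most abundant genes, 41.1% of FPKM, was 22.7% of counts and 29.6% without mitochondrial genes. The median coefficient of variation, 6.65%, was 5.54% for genes of at least 5 FPKM, 24.7% with no filter and 4.62% to 6.10% with 1 library left out. The biological coefficient of variation, 15.5%, was 28.6% with no filter, 10.9% as the DESeq2 median, 9.56% with counts divided by 4 and 14.2% to 16.5% with 1 library left out. The 247 genes that differed 2-fold numbered 39 at 5 FPKM or more, 112 after adding 1 FPKM, 115 without same-strand overlap and 113 to 152 with 1 library left out. The lowest Pearson correlation between DMSO libraries, 0.992, was 0.991 with a pseudocount of 0.1 and 0.994 with no filter. Fewer genes or libraries enter the filtered and left-out settings, and for the others the cause was not tested. The division by 4, the overlap filter and a scaling of FPKM to one sum were chosen after seeing the data. Of 157 gene levels checked, KRT14 moved most, from 10.1 to 6.68 FPKM without DMSO 1. No paired analysis was possible because only 1 group is described. Genes below 1 FPKM have a wide spread, so their order is not resolved at this depth.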

Other observations

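Signalling and stress genes of the resting cells were expressed in part. Of 35 kinases and adaptors of myeloid signalling, 34 were expressed, led by the adaptor GRB2 at 159, 155 and 154 FPKM and the kinase SYK at 61.4, 61.7 and 60.0 FPKM, and JAK3 was the exception at 0.80, 0.75 and 0.86 FPKM. Of 30 interferon-stimulated genes 15 were expressed, near the 58.7% of all protein-coding genes: BST2, which tethers budding virions, gave 222, 203 and 213 FPKM, and IFI44L and GBP1 did not exceed 0.02 FPKM. Of 18 NF-kB factors and feedback genes 16 were expressed, with RELA averaging 15.01 FPKM, and TRAF1 and BIRC3 under threshold. Among immediate early and stress genes, 23 of 30, ATF4 averaged 87.1 FPKM and JUNB 52.5 FPKM, while EGR2, EGR3 and NR4A3 stayed at 0.10 FPKM or less. HSPA1A and HSPA1B, at means of 58.2 and 60.7 FPKM, are near-identical copies whose split is uncertain.

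Secreted factors were led by MIF, a macrophage cytokine, at 197, 179 and 167 FPKM and GRN, the progranulin gene, at 161, 158 and 156 FPKM. TNF gave 17.4, 17.3 and 13.9 FPKM and IL1B 13.52, 12 and 11.03 FPKM, whereas IL6 did not exceed 0.03 FPKM and IL10 was listed at 0. Of the 20 expressed members of that list, 16 were lowest in DMSO 3, as were 36.9% of all expressed genes. All 35 proteasome genes were expressed, and 29 of them were highest in DMSO 1, as were 32.5% of all expressed genes. Long noncoding RNAs, 23 of 40, were led by NORAD at 34.6, 34.1 and 38.0 FPKM, and HOTAIR and MEG3 did not exceed 0.02 FPKM. Replication-dependent histone genes, whose transcripts mostly lack a poly(A) tail, were expressed in 12 of 25, with H2BC12 alone above 100 FPKM at 153, 143 and 141 FPKM. RPS29 stood far below the other 79 ribosomal protein genes at 3.90, 3.57 and 3.02 FPKM, and RPL37 was next at 29.3, 26.1 and 25.1 FPKM.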
